A study of Mus musculus with 12 samples.

Results

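The question here was whether the effect of an Arid1a mutation on gene expression in the mouse yolk sac differed between embryonic day 8.5 (E8.5) and E9.5. All 12 of the 12 arrays of the series were used, taken into 4 groups of 3 by the genotype and stage in their titles. For each gene, the mutant minus wild-type difference was taken at E8.5 and at E9.5, and the first was subtracted from the second. This difference of differences is called the interaction below, on the log2 scale. A positive interaction means that the mutant stood higher against wild type at E9.5 than at E8.5, and a negative one that it stood lower.

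The groups were wild-type yolk sac at E8.5, wild-type yolk sac at E9.5, and yolk sacs homozygous for the V1068G point mutation of Baf250a/Arid1a at each of the same stages, all on a CD1 background. The labels name no Cre or other transgene. Each yolk sac RNA, in Cy5, was hybridised against a reference RNA in Cy3 made from whole neonatal wild-type mice of mixed 129Sv and C57BL/6 background. The labels call the 3 arrays of a group biological replicates and leave unsaid whether yolk sacs were pooled, so p-values measure the spread between these samples.

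Arid1a encodes a DNA-binding subunit of the BAF form of the SWI/SNF complex, which uses ATP to move or evict nucleosomes, and its AT-rich interaction domain contacts DNA. The yolk sac consists of visceral endoderm, which secretes serum proteins and takes up nutrients, and of a mesoderm layer that forms blood islands, vessels and mesothelium. Between these stages primitive red cells fill the vessels, the capillary plexus is remodelled into larger arteries and veins, and the first definitive progenitors, megakaryocytes and macrophages appear.

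In Cy5, 46.7% to 50.1% of probes on an array were called well above background by the scanner software, and the median Cy5 signal lay between 43.1 and 46.8 intensity units over local backgrounds of 35 to 37. The tissue's defining genes were present. Cubn, the endocytic receptor cubilin, stood between 5.05 and 5.53 (log2 Cy5/Cy3) on the 12 arrays, and the embryonic globin Hba-x between 4.54 and 4.98. Markers of other tissue and of sex set single arrays apart. Prl4a1, a prolactin-family hormone of trophoblast, stood at 5.70 on mutant E8.5 replicate 3, 4.31 on wild-type E9.5 replicate 3 and 3.74 on mutant E9.5 replicate 3, against 0.26 to 1.53 on the other 9. Xist, transcribed from the inactive X chromosome of female cells, stood at -4.01 and -4.17 on mutant E8.5 replicates 2 and 3 and -4.02 on wild-type E9.5 replicate 2, against -1.98 to -0.52 on the other 9. Those low arrays fall in the 2 groups that enter the interaction with a negative sign. The arrays of 1 replicate number were scanned together. The file headers give 1 slide barcode for replicate 1 and another for replicates 2 and 3. Replicates 2 and 3 of a group thus carry the same barcode and position, though they were scanned apart and their log ratios differ. The position on the slide was fixed by the group, so that position and group cannot be told apart. In whole tissue, fewer cells of a type and less RNA per cell cannot be told apart either.

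No gene of the 13896 tested passed an adjusted p of 0.05 for the interaction (limma, Benjamini-Hochberg over all genes; 0% called). The smallest adjusted p was 0.112, for Plekhd1. Without adjustment, 795 genes (5.72%) had p under 0.05, of which 346 had a positive interaction (2.49%) and 449 a negative one (3.23%). With no interaction in any gene, a share of about 0.05 is expected at that level. The count of 795 became 222 with median centring in place of loess, 421 with the Xist level in the fit and 1066 with the replicate number as a block. The list counts below at an unadjusted p under 0.05 rest on this level. At the separate stages, 200 genes changed in the mutant at E8.5 (1.44%) and 277 at E9.5 (1.99%), with adjusted p under 0.05. With median centring in place of loess these became 10 and 26, and 24 and 134 in a fit that included the Xist level. The interaction had 0 calls under both, 1 with the replicate number as a block, 1 with a trended robust prior, 2 with array weights, 2 without the 3 arrays high in Prl4a1 and 5 without wild-type E9.5 replicate 3.

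The missing calls came with a stated precision. The median standard error of an interaction was 0.0953, against 0.0674 for the difference at a single stage, and the median 95% interval reached 0.204 to either side of the estimate. For 13818 genes (99.4%) the interval lay within 2-fold in either direction, and for 13445 (96.8%) within 1.5-fold. Among the 391 genes that changed at either stage these counts were 380 and 329. These intervals are for log ratios taken with a background offset of 50, which draws the ratios of dim spots toward 0. Over the other settings the interaction reached 0.94 for Oas1a and -1.31 for Plekhd1, outside their intervals here. On this scale, a stage difference in the mutant effect beyond 1.5-fold lay outside the interval for most genes. After adjustment, no interaction of any size was told from 0. An estimate of at least 1 in size was found for 13 genes, among them Hspa1a, Xist, Eif2s3y, Hspa1b, Myl7, Mybpc3, Prl4a1 and Rbm6.

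**Figure D1:**
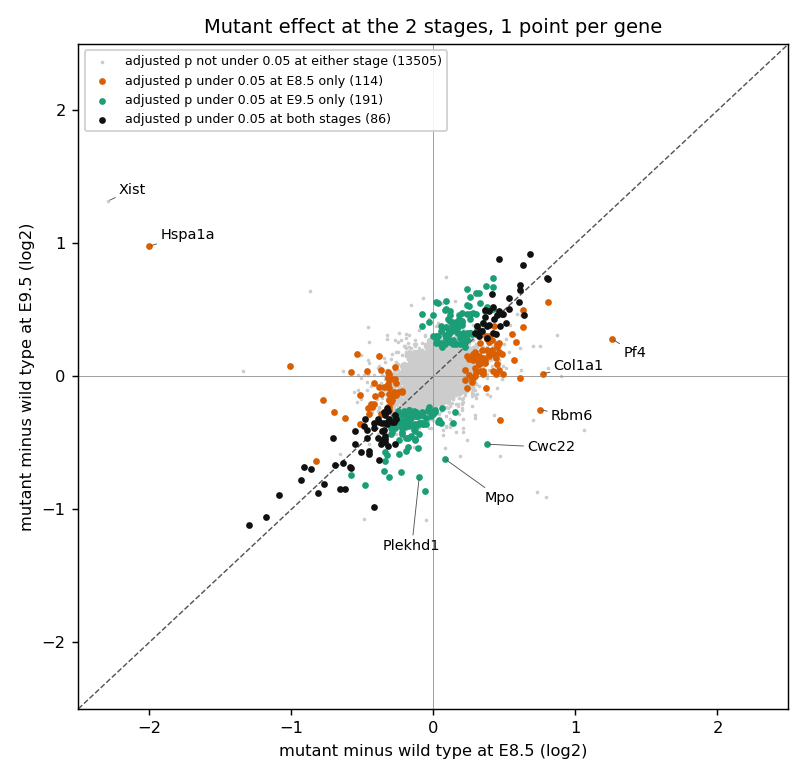
Mutant minus wild type (log2) at E8.5 on the x axis and at E9.5 on the y axis, 1 point for each of the 13896 genes, coloured by the stage at which the adjusted p was under 0.05 (limma). On the dashed line the effect is the same at both stages. The 86 genes called at both have the same sign at both stages, though some, such as Cpb2 (0.46 and 0.88), lie off the line. Hspa1a, Xist, Pf4, Col1a1 and Rbm6 lie far from it, without passing the test of the difference.

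Genes that changed at a stage mostly moved the same way at the other. Of the 200 genes called at E8.5, 180 (90%) had the same sign at E9.5. Of these 200, 86 (43%) were called at E9.5 too, against 1.99% of all genes. Of the 277 called at E9.5, 261 (94.2%) had the same sign at E8.5. The same 86 (31%) were called at E8.5, against 1.44% of all genes. Over all 13896 genes, 4906 (35.3%) had opposite signs at the stages, and 1291 had a rounded difference of 0 at a stage. All 86 changed in the same direction, 34 up and 52 down, and no gene was called at both stages in opposite directions. The effect was smaller at the stage that had not chosen the genes, from either side. The median was 0.39 at E8.5 and 0.26 at E9.5 for the genes called at E8.5, and 0.38 at E9.5 and 0.23 at E8.5 for those called at E9.5. The remaining 114 genes called at E8.5 and 191 called at E9.5 are not shown to differ between the stages, since none passed the interaction.

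Over all genes the mutant effect at E8.5 correlated with that at E9.5 with r = 0.396 across 13896 genes, with a slope of 0.895 by total least squares. The comparisons share no array, but they share the reference RNA, the scans and the slide barcodes. Taken from the arrays of a single scan, r was 0.277, 0.213 and 0.28. Genes are not independent replicates and r is given as a description.

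The genes whose effect was most alike at the stages were Fxyd6, Ambp, Vwce and Cbln1. They were taken as the 4 with the interaction nearest 0 among genes called at both stages in 1 direction with an effect of at least 0.5. Fxyd6, a regulator of the sodium pump, stood at -1.58, -1.56 and -1.91 in wild type and -2.26, -2.40 and -2.47 in mutant at E8.5. At E9.5 it stood at -1.73, -1.77 and -1.80 in wild type and -2.42, -2.57 and -2.33 in mutant. Every mutant array lay below every wild-type array at both stages. Fxyd6 fell by 0.69 ± 0.09 (SE, n = 3 per group) at E8.5 and by 0.67 ± 0.09 at E9.5, and its interaction of 0.02 had a 95% interval from -0.25 to 0.29.

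Ambp, which encodes the plasma proteins alpha-1-microglobulin and bikunin, fell by 0.77 ± 0.11 and by 0.81 ± 0.11 at the respective stages, with an interval of the interaction from -0.35 to 0.29. Its level rose with stage in both genotypes, by 0.55 in wild type and 0.51 in mutant. Vwce and Cbln1 rose at both stages. Vwce, a secreted protein with von Willebrand factor domains, went up by 0.53 ± 0.09 and 0.51 ± 0.09 (interval -0.29 to 0.25). Cbln1, a secreted C1q-related protein, went up by 0.60 ± 0.08 and 0.56 ± 0.08 (interval -0.27 to 0.20). Dimmer second probes gave smaller effects, of 0.17 and 0.01 for Cbln1 and of -0.11 and -0.10 for Fxyd6.

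The gene with the smallest interaction p was Plekhd1, which encodes a protein with a pleckstrin homology domain and coiled coils. In wild type it stood at -0.35, -0.32 and -0.38 at E8.5 and at 0.57, 0.59 and 0.47 at E9.5. In the mutant it stood at -0.53, -0.40 and -0.42 at E8.5 and at -0.32, -0.06 and -0.26 at E9.5. The 3 wild-type E9.5 arrays were thus well above all others. It fell in the mutant by 0.76 ± 0.07 at E9.5 (adjusted p = 3.48e-05), while at E8.5 the difference was -0.10 ± 0.07 (adjusted p = 0.621).

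The Plekhd1 probe was well above background on 1 of 3 wild-type and 0 of 3 mutant arrays at E8.5 and on every E9.5 array, so that it was tested through the stage at which it is high. Its mutant level at E8.5 is only an upper bound, and the fitted interaction of -0.66 ± 0.10 (unadjusted p = 8.05e-06) takes a difference between levels near background as if it had been measured. The E9.5 difference does not depend on those arrays' levels. The interaction passed in some other fits, with an adjusted p of 0.0392 with the replicate number as a block and of 0.0144 to 0.0309 in 4 others, under the same limit.

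Several megakaryocyte and platelet genes stood higher in the mutant at E8.5. Pf4, the platelet chemokine platelet factor 4, stood at -2.73, -2.70 and -2.77 in wild type and at -1.45, -1.46 and -1.49 in mutant at E8.5. The E9.5 levels were -0.33, -0.36 and -0.96 in wild type and -0.36, -0.29 and -0.15 in mutant. The groups were far apart at E8.5 and overlapped at E9.5. Pf4 rose by 1.26 ± 0.12 in the mutant at E8.5 (adjusted p = 0.000129), against 0.28 ± 0.12 at E9.5 (adjusted p = 0.374). Its interaction was -0.98 ± 0.17 (interval -1.36 to -0.61, adjusted p = 0.162).

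Wild-type E9.5 replicate 3, 1 of the arrays high in Prl4a1, was the low array for Pf4 in its group. Without that array the Pf4 interaction was -1.19 ± 0.09 with an adjusted p of 5.55e-05, and without all 3 arrays high in Prl4a1 it was -1.26 ± 0.09 with an adjusted p of 0.000316. The other arrays high in Prl4a1 did not stand low alike. Mutant E8.5 replicate 3 had Pf4 at -1.49, against -1.45 and -1.46 in its group. Mutant E9.5 replicate 3, at -0.15, was the highest of its group. The part of trophoblast RNA in these Pf4 values was not tested.

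Of 20 measured megakaryocyte genes, 17 had a negative interaction, against 7182 of 13896 genes. At an unadjusted p under 0.05, 7 were negative and 1, Ppbp, was positive, against 3.23% and 2.49% of all genes. Itga2b went the other way, with an interaction of 0.21 and a difference of -0.07 at E8.5, and did not pass. The median interaction was -0.16, against 0.00 over all genes tested, and it stayed between -0.42 and -0.13 under every one of the 26 other settings. At E8.5 4 of the 20 rose and none fell, against 0.712% of all genes that rose. Among them were Pf4, Clec1b (the podoplanin receptor of platelets, by 0.58) and Treml1 (a platelet granule receptor, by 0.44). At E9.5 Clec1b and Treml1 had differences of 0.26 and 0.16, and 1 of the 20 rose, against 0.914% of all genes.

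Clec1b stood at -0.33, -0.39 and -0.38 in wild type and at 0.15, 0.13 and 0.35 in mutant at E8.5, then at 0.63, 0.42 and 0.30 in wild type and at 0.71, 0.79 and 0.63 in mutant at E9.5. As with Pf4, the gap at E8.5 was clear and the groups touched at E9.5. The interactions of Clec1b, Treml1, Itgb3 (the fibrinogen receptor's beta chain), Nfe2 (a transcription factor of platelet formation) and Nrgn (neurogranin) were -0.32, -0.28, -0.35, -0.45 and -0.21. None passed. Ppbp, another platelet chemokine, rose by 0.47 ± 0.09 at E9.5 (adjusted p = 0.0129). No E8.5 array had its probe well above background, so that neither a difference at E8.5 nor an interaction can be read.

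Col1a1 and Col3a1, fibrillar collagens of mesenchyme, rose in the mutant at E8.5. Col1a1, a chain of type I collagen, stood at -4.37, -4.41 and -4.53 in wild type and at -3.68, -3.42 and -3.89 in mutant at E8.5. The E9.5 arrays gave -2.54, -2.39 and -2.76 in wild type and -2.46, -2.68 and -2.49 in mutant. The mutant lay above wild type on every E8.5 array, and the groups overlapped at E9.5. Col1a1 rose by 0.77 ± 0.11 at E8.5 (adjusted p = 0.00227), the difference at E9.5 was 0.02 ± 0.11, and the interaction was -0.75 ± 0.16 (adjusted p = 0.266).

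Col3a1, the type III chain, rose by 0.61 ± 0.08 at E8.5 (adjusted p = 0.00121), with a difference of -0.01 ± 0.08 at E9.5 and an interaction of -0.63 ± 0.11 (adjusted p = 0.162). Other probes of the same genes gave -0.33 and -0.15 for Col1a1 and -0.01 for Col3a1, on dimmer spots, so that the size differed by probe. Of 36 measured genes of mesenchyme, mesothelium and smooth muscle, 5 had a negative interaction at an unadjusted p under 0.05, against 3.23% of all genes, and none a positive one. Beside these collagens they were Col1a2 at -0.36, Hand1 at -0.35 and Lum at -0.38. The list's median of -0.01 was close to that of all genes.

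Some genes of white blood cells fell in the mutant at E9.5. Mpo, the myeloperoxidase of granulocyte precursors, stood at -2.86, -2.72 and -2.96 in wild type and at -2.86, -2.71 and -2.72 in mutant at E8.5. At E9.5 it stood at -1.87, -1.68 and -2.16 in wild type and at -2.63, -2.52 and -2.40 in mutant. The wild type thus rose with stage by 0.94 (adjusted p = 2.9e-05), where the mutant's difference was 0.24 (adjusted p = 0.112). Mpo fell in the mutant by 0.62 ± 0.10 at E9.5 (adjusted p = 0.00513), and its interaction was -0.70 ± 0.15 (adjusted p = 0.266, and 0.029 without wild-type E9.5 replicate 3).

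Pik3cd, the leukocyte catalytic subunit of phosphoinositide 3-kinase, fell at both stages, by 0.42 ± 0.08 and by 0.98 ± 0.08, with an interaction of -0.56 ± 0.12 (adjusted p = 0.266). Of 20 measured myeloid genes, 4 had a negative interaction at an unadjusted p under 0.05, against 3.23% of all genes, and none a positive one. The others were Cebpb, a transcription factor of myeloid cells, at -0.34 and Coro1a, the leukocyte actin regulator coronin, at -0.34. At E9.5 3 of the 20 fell, against 1.08% of all genes, and at E8.5 1 fell, against 0.727%. The list's median interaction was -0.07. Other measured members went both ways at E9.5. The differences were -0.05 for Csf1r, 0.06 for Mrc1, 0.13 for Lyz2 and 0.24 for Cd14, and -0.15 for Cd68 and -0.51 for Fcgr3. None of these passed, while Sirpa fell by 0.82 (limma adjusted p = 0.00721). Probes for 7 further markers, among them Adgre1, Itgam and Cx3cr1 of macrophages, were not well above background in any group.

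**Figure D2:**
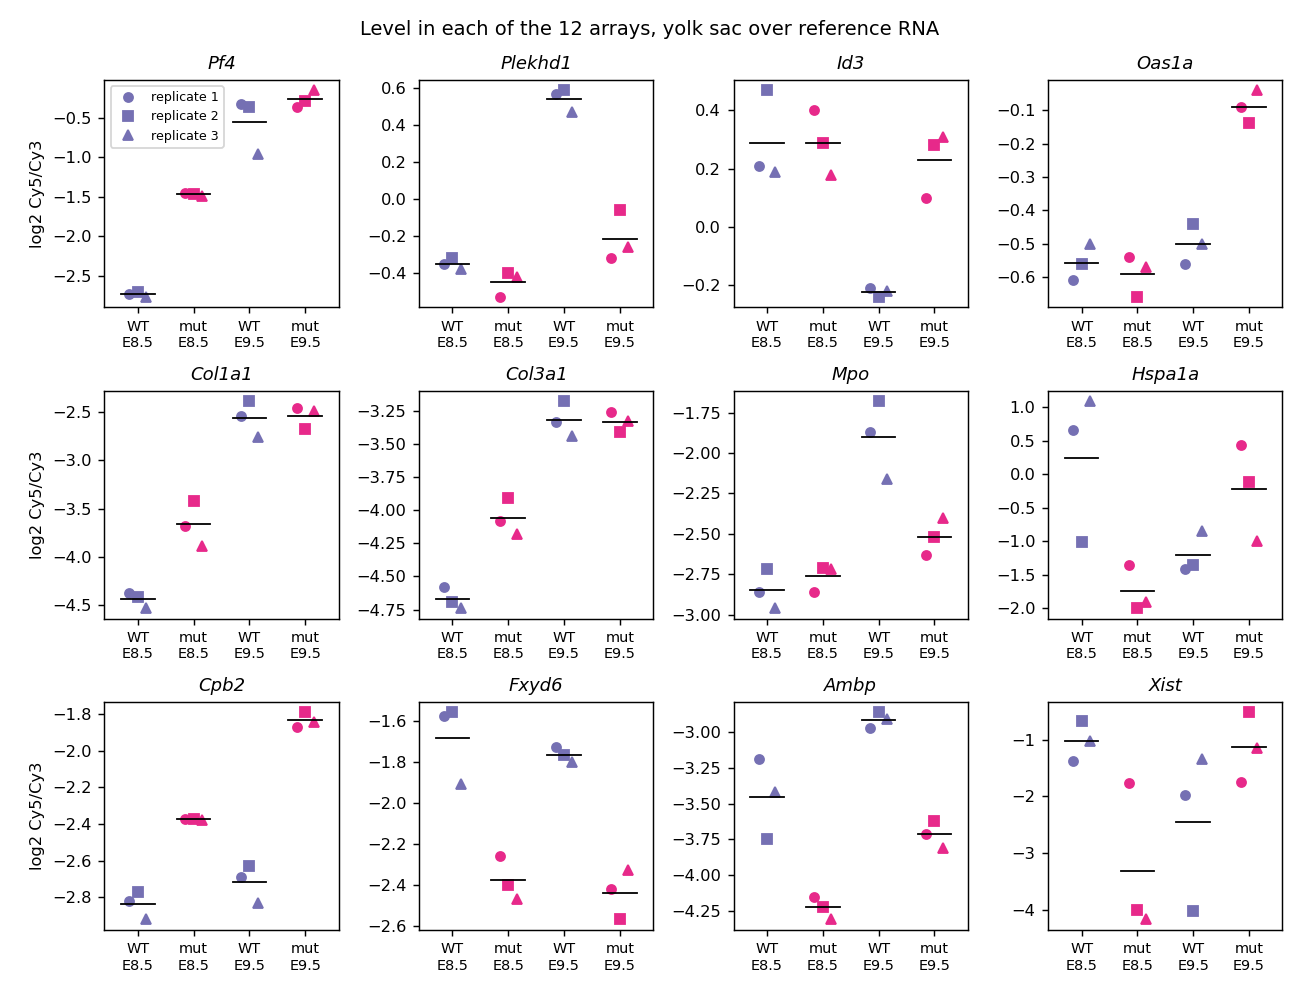
Level (log2 Cy5/Cy3) of 12 genes on each of the 12 arrays, by group, with wild type (WT) in violet, mutant (mut) in pink, a marker shape per replicate number and a bar at the group mean; each panel has its own scale. For Pf4, Col1a1 and Col3a1 the mutant lies above wild type at E8.5 and overlaps it at E9.5, for Plekhd1, Oas1a and Mpo the gap appears at E9.5, and for Fxyd6 and Ambp it is alike at both stages. Some E8.5 levels of Plekhd1 and Oas1a lie near background.

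Some interferon-stimulated genes rose in the mutant at E9.5. Oas1a, an enzyme that senses double-stranded RNA, stood at -0.61, -0.56 and -0.50 in wild type and at -0.54, -0.66 and -0.57 in mutant at E8.5. The E9.5 levels were -0.56, -0.44 and -0.50 in wild type and -0.09, -0.14 and -0.04 in mutant. The 3 mutant E9.5 arrays lay above the other 9. Oas1a rose by 0.41 ± 0.06 at E9.5 (adjusted p = 0.00123), the difference at E8.5 was -0.03 ± 0.06, and the interaction was 0.44 ± 0.08 (interval 0.27 to 0.61, adjusted p = 0.162).

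Of 36 measured interferon-stimulated genes, 29 had a positive interaction, and 8 had one at an unadjusted p under 0.05, against 6714 of 13896 and 2.49% of all genes. Of the 8, only Ifit3, Igtp and Irf9 were well above background on all 3 arrays of every group. Oas1a, Oasl2, Isg15, Usp18 and Rtp4 were not so throughout wild-type E8.5, so the count of 8 rests partly on levels near background. None had a negative one at that level. At E9.5 11 of the 36 rose, against 0.914% of all genes, and none fell. At E8.5 1 rose, Ifi27l2b, against 0.712%. Oasl2 rose by 0.56 at E9.5, Isg15, a ubiquitin-like modifier, by 0.49, Usp18, the protease that removes it, by 0.43, and Rtp4 by 0.68, where at E8.5 their probes were well above background on 2, 2, 0 and 1 of 3 wild-type arrays. Isg15 stood at -0.53, -0.50 and -0.65 in wild type and at -0.21, 0.08 and -0.06 in mutant at E9.5, with no overlap. The median interaction of the list was 0.12 and stayed between 0.06 and 0.15 under every one of the 26 other settings. Many of these probes were dim. Oas1a was well above background on 1 of 3 wild-type E8.5 arrays, so that its interaction takes a level near background as if it had been measured.

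Of the heat shock genes, some fell in the mutant at E8.5. Hspa1a, the inducible chaperone Hsp70, stood at 0.66, -1.01 and 1.09 in wild type and at -1.35, -2.0 and -1.90 in mutant at E8.5. At E9.5 its levels were -1.42, -1.36 and -0.85 in wild type and 0.44, -0.12 and -1.0 in mutant. The genotypes did not overlap at E8.5, where wild type was high, and overlapped at E9.5, where the mutant was mostly high. Hspa1a fell by 2.00 ± 0.43 at E8.5 (adjusted p = 0.0343), and the difference at E9.5 was 0.98 ± 0.43 (adjusted p = 0.379).

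The Hspa1a interaction was 2.98 ± 0.61, with an interval from 1.67 to 4.29 and an adjusted p of 0.266. Without wild-type E8.5 replicate 2 it was 3.61 ± 0.42 with an adjusted p of 0.00733, and with array weights 3.41 ± 0.49 with an adjusted p of 0.0309. A further Hspa1a probe gave 2.82 ± 0.52. Hspa1b is nearly identical in sequence, its interaction was 1.51, and the probes may not tell the genes apart.

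Of 23 measured heat shock genes, 18 had a positive interaction, 7 at an unadjusted p under 0.05 and none negative at that level, against 6714 of 13896 and 2.49% of all genes. The median was 0.16, and 0.11 to 0.20 under the other settings. At E8.5 4 of the 23 fell, against 0.727% of all genes, and none rose: Hspa1a, Dnajb1 (an Hsp40 cochaperone, by 0.54), Bag3 (an Hsp70 cochaperone, by 0.31) and Hspb8 (a small heat shock protein, by 0.43). At E9.5 none of the 23 was called in either direction. Dnajb1 stood at 1.38, 1.03 and 1.39 in wild type and at 0.79, 0.70 and 0.71 in mutant at E8.5, then at 0.99, 0.79 and 1.09 in wild type and at 1.31, 1.21 and 0.85 in mutant. Its interaction was 0.70 (adjusted p = 0.324), and that of Hsph1, an Hsp70 exchange factor, 0.45 (adjusted p = 0.475).

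Vascular genes gave values on both sides. Of 20 measured genes of the Notch pathway, arteries and veins, 5 had a negative interaction at an unadjusted p under 0.05 (3.23% of all genes) and none a positive one (2.49%), with a median of -0.04. They were Unc5b (a netrin receptor, -0.49), Ephb4 (the ephrin receptor of veins, -0.35), Gja5 (the arterial connexin 40, -0.79), Gja4 (connexin 37, -0.25) and Rbpj (the DNA-binding partner of Notch, -0.23). Gja5 stood at 0.71, 0.29 and 1.18 in wild type and at 1.02, 0.85 and 0.89 in mutant at E8.5, and at 1.28, 1.52 and 1.43 in wild type and at 0.66, 0.96 and 0.80 in mutant at E9.5. The groups were mixed at E8.5, and every mutant array lay below every wild-type array at E9.5. The Gja5 difference at E9.5 was -0.60 ± 0.16 and did not pass (adjusted p = 0.0696).

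Unc5b fell by 0.35 ± 0.08 at E9.5 (adjusted p = 0.0275), with a difference of 0.14 ± 0.08 at E8.5 (adjusted p = 0.503). Of 39 measured endothelial genes, 5 had a negative and 2 a positive interaction at that level, against 3.23% and 2.49% of all genes, with a median of 0.00. Cldn5, the endothelial claudin, rose by 0.24 ± 0.05 at E8.5 (adjusted p = 0.0343), with a difference of -0.09 ± 0.05 at E9.5, for an interaction of -0.32 ± 0.07 (adjusted p = 0.291). Lyve1, a hyaluronan receptor of yolk sac and lymphatic endothelium, had the opposite sign. It fell by 0.37 ± 0.08 at E8.5 (adjusted p = 0.0437), with a difference of 0.05 ± 0.08 at E9.5, for an interaction of 0.42 (adjusted p = 0.509).

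TGF-beta and BMP pathway genes held 5 positive interactions and no negative one at an unadjusted p under 0.05 among 38 measured members, against 2.49% and 3.23% of all genes, with a median of 0.03. The 5 include Fst and Id4, whose probes were well above background on 1 and 0 of 3 mutant E8.5 arrays. Their interactions cannot be read, so the count overstates what was measured. Id3, a BMP target that blocks basic helix-loop-helix factors, stood at 0.21, 0.47 and 0.19 in wild type and at 0.40, 0.29 and 0.18 in mutant at E8.5. The E9.5 arrays gave -0.21, -0.24 and -0.22 in wild type and 0.10, 0.28 and 0.31 in mutant. Wild type fell with stage by 0.52 (adjusted p = 0.000484), where the mutant's difference was -0.06 (adjusted p = 0.682). Id3 rose in the mutant by 0.46 ± 0.08 at E9.5 (adjusted p = 0.00785), with a difference of 0.00 ± 0.08 at E8.5 and an interaction of 0.46 ± 0.12 (adjusted p = 0.411). Ccn2 and Tgfbi, matrix proteins induced by TGF-beta, also rose at E9.5, by 0.50 and 0.48, against 0.08 and 0.20 at E8.5.

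Cpb2, a carboxypeptidase that slows fibrinolysis, rose at both stages. It stood at -2.82, -2.77 and -2.92 in wild type and at -2.37, -2.37 and -2.38 in mutant at E8.5, and at -2.69, -2.63 and -2.83 in wild type and at -1.87, -1.79 and -1.84 in mutant at E9.5. Mutant lay above wild type on every array at both stages, by 0.46 ± 0.06 and 0.88 ± 0.06, and the interaction was 0.42 ± 0.09 (adjusted p = 0.266). Another Cpb2 probe gave 0.29 ± 0.11. Of 21 measured serpins and coagulation factors 18 had a positive interaction, against 6714 of 13896 genes. Their median was 0.12, and Cpb2 alone had an unadjusted p under 0.05.

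Slc5a4b, of the sodium and glucose cotransporter family, rose by 0.66 ± 0.06 at E9.5 (adjusted p = 6.26e-05), against 0.24 ± 0.06 at E8.5 (adjusted p = 0.0831), with an interaction of 0.42 ± 0.09. On no array was its Cy3 signal well above background, and from the scanner software's processed signals its interaction was -0.28, where its other probes gave 0.37 and 0.34. Gys2, the liver form of glycogen synthase, rose by 0.51 ± 0.07 at E9.5 (adjusted p = 0.00112), against 0.09 ± 0.07, and Myh14, a non-muscle myosin heavy chain, by 0.55 ± 0.07 (adjusted p = 0.000934), against 0.03 ± 0.07. Their interactions were 0.42 ± 0.10 and 0.52 ± 0.10.

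Other genes among the 12 with the smallest p on the positive side were Sptssb (a subunit of serine palmitoyltransferase), Ndufaf2 (a complex I assembly factor), Phlda1, Clk1 (a kinase of splicing factors) and the zinc finger gene Zfp84, with interactions from 0.34 to 0.53. The other Zfp84 probe, a dimmer one, gave 0.04 ± 0.08, and another Clk1 probe 0.33 ± 0.13. On the negative side they were Rbm6 (an RNA-binding protein) at -1.0, Cwc22 (a spliceosome component) at -0.89, 4933404O12Rik at -0.46, Tspan13 (a tetraspanin) at -0.42 and Car1 (the carbonic anhydrase of red cells) at -0.36. Rbm6 stood at -0.64, -1.10 and -0.56 in wild type and at 0.04, -0.09 and 0.00 in mutant at E8.5, and at -0.12, -0.12 and -0.54 in wild type and at -0.40, -0.50 and -0.64 in mutant at E9.5. It rose by 0.75 ± 0.13 at E8.5 (adjusted p = 0.00983), and the difference at E9.5 was -0.25 ± 0.13 (adjusted p = 0.487). Its adjusted interaction p of 0.162 became 0.029 without wild-type E9.5 replicate 3.

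**Figure D3:**
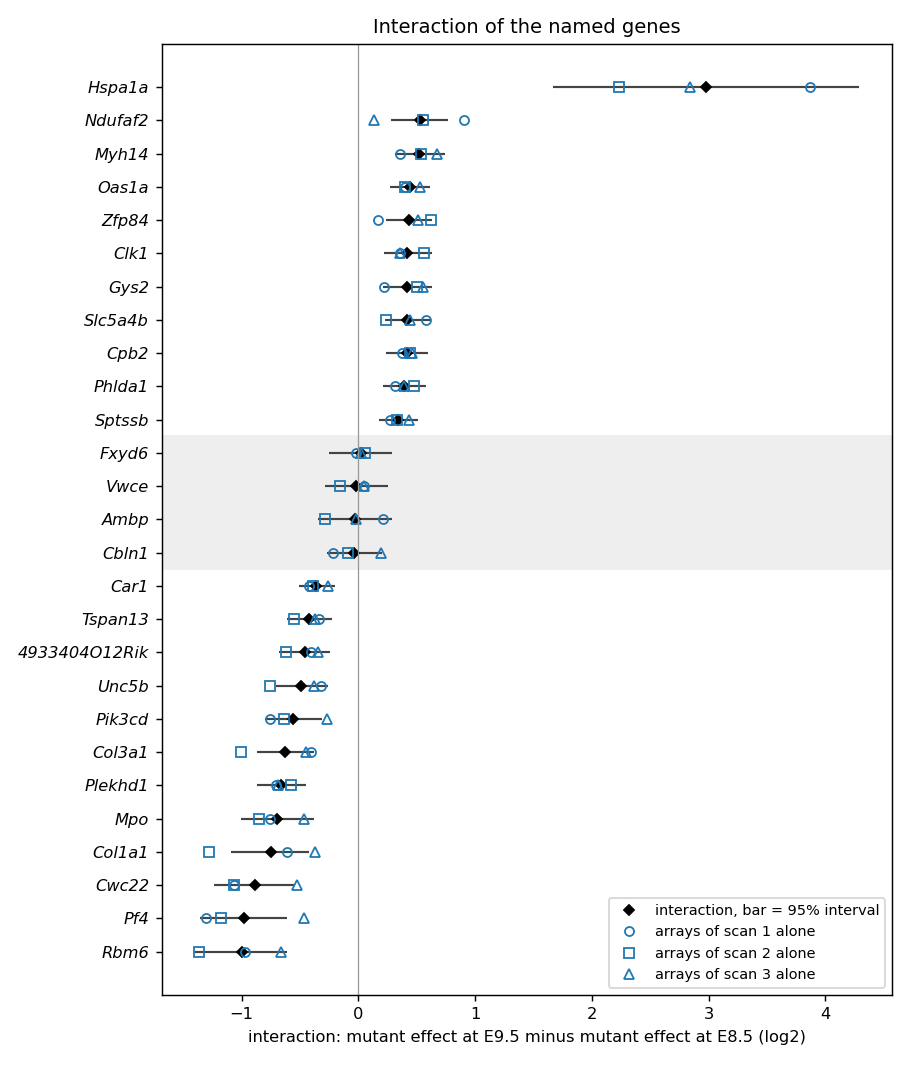
Interaction (log2) of 11 positive and 12 negative genes among those with the smallest p and of 4 genes with like effects at both stages (grey band), as a diamond with its 95% interval, beside the value from the 4 arrays of each scan alone (open marks). The 23 intervals outside the band exclude 0 but no gene passed after adjustment over 13896 genes; those in the band lie between -0.35 and 0.29.

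No list held a called interaction. Among 26 measured endocytic and lysosomal genes of the endoderm, 25 had a negative interaction, with a median of -0.12 and values from -0.28 to 0.10. Over all genes, 7182 of 13896 were negative. Ctsd, the lysosomal protease cathepsin D, was at -0.27 and Ctsb, cathepsin B, at -0.21. Ctsb rose by 0.32 ± 0.07 at E8.5 (adjusted p = 0.0467), against 0.11 ± 0.07 at E9.5. The list's median stayed between -0.18 and -0.08 under the 26 other settings. From the arrays of each scan alone it was -0.21, -0.16 and 0.04. Secreted proteins of visceral endoderm (31 measured), their transcription factors (16), lipid transport genes (24) and retinoid genes (15) had medians of -0.03, -0.05, -0.02 and 0.03. SWI/SNF subunits (25), p53 targets (26), cell cycle genes (46) and ribosomal proteins (53) had medians of 0.04, 0.02, 0.00 and -0.01.

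Red cell genes differed between the scans. Of 40 measured erythroid genes 33 had a negative interaction, against 7182 of 13896 genes. Their median was -0.12, and the 6 globins had a median of -0.18. The first scan had a slide barcode of its own. On it, where no array was low in Xist, the erythroid median was 0.25. It was -0.34 and -0.32 on the other scans, which held the 3 arrays low in Xist. Without those 3 arrays the medians of the erythroid and globin lists were 0.01 and 0.08, and without the 3 arrays high in Prl4a1 they were 0.00 and -0.16. The part of either marker in these values was not tested. Hbb-y, an embryonic globin, had an interaction of -0.52 with an interval from -1.16 to 0.12, and of 0.12 with the Xist level as a covariate.

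**Figure D4:**
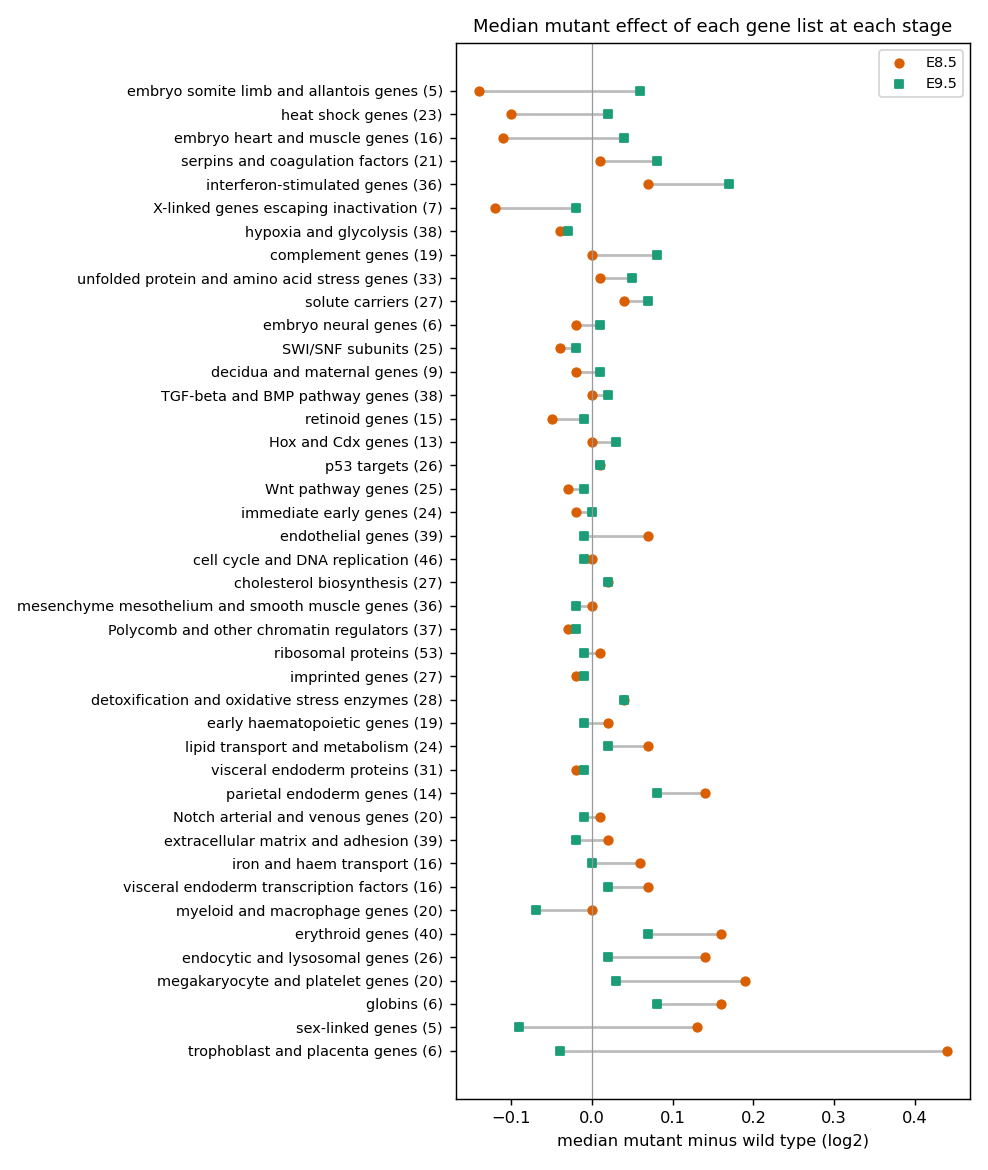
Median mutant minus wild type (log2) of the measured members of each gene list (their number in brackets), as a circle at E8.5 and a square at E9.5, ordered by the median interaction. Trophoblast genes, with 6 members, have the longest bar, from 0.44 to -0.04; among lists of 20 or more members the longest is that of megakaryocyte genes, from 0.19 to 0.03.

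Markers of neighbouring tissue were measured beside these lists. Of 26 trophoblast genes 6 were measured, Hand1 of the mesenchyme list among them, and 16 others with a probe, Tpbpa, Gcm1 and Elf5 among them, were not well above background in any group. Their median interaction was -0.43, with values from -1.47 for Prl4a1 to 0.36 for Prl3b1, and without the 3 arrays high in Prl4a1 it was -0.06. The mean level of the 6 ran from 0.67 to 0.87 in wild type and 0.63 to 2.52 in mutant at E8.5, and from 0.58 to 1.96 and 0.46 to 2.22 at E9.5. Embryonic heart genes (16 measured) had a median of 0.13, and wild-type E8.5 replicate 2 stood highest in them, as in neural genes. The atrial myosin light chain Myl7 stood at 0.01 on that array, against -3.14 to -1.47 on the other 11, and Hes5, a Notch target of neural tissue, at 0.06, against -1.55 to -1.41. Without that array the Hes5 interaction went from 0.51 to 0.00. Their part in the other results was not tested.

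Read across the other way, the interaction asks whether the change from E8.5 to E9.5 differed between the genotypes. In wild type 3308 genes changed with stage (23.8%) and in the mutant 2998 (21.6%). Of the 3308, 3206 (96.9%) had the same sign in the mutant, with medians of 0.29 in wild type and 0.24 in mutant. Of the 2998, 2924 (97.5%) had the same sign in wild type, with medians of 0.29 in mutant and 0.26 in wild type. The stage changes correlated with r = 0.806 and a slope of 0.951 across 13896 genes, and with r from 0.622 to 0.671 on single scans. The 6 wild-type and 6 mutant arrays share only the reference RNA, the scans and the slide barcodes.

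Some of the genes above had a larger estimated stage change in 1 genotype, though no such difference passed the test of the interaction. Pf4 rose with stage by 2.19 in wild type and 1.2 in mutant, Col1a1 by 1.87 and 1.12, and Col3a1 by 1.35 and 0.73. There were 5 genes that changed with stage in both genotypes in opposite directions. They were Hspa1a (-1.46 in wild type and 1.52 in mutant), Rbm6 (0.51 and -0.50), Unc5b (0.26 and -0.23), Rrp8, a nucleolar factor (-0.31 and 0.30), and the transcript AK040896 (0.39 and -0.41). The interaction of AK040896 was -0.80 ± 0.14 (adjusted p = 0.162), and its adjusted p was 0.000371 without wild-type E9.5 replicate 3. AK040896 and Rrp8 were chosen after their values were seen.

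**Figure D5:**
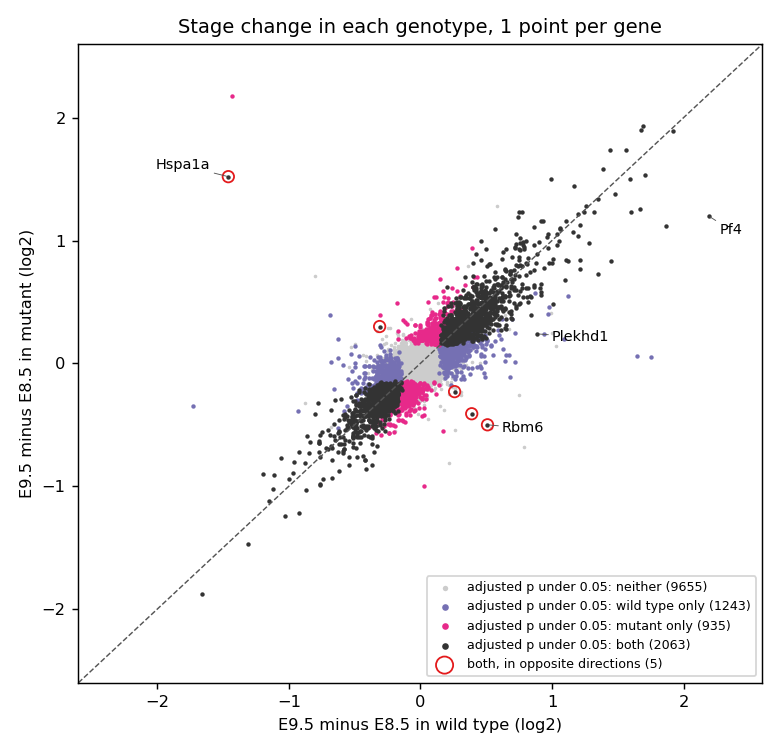
Change from E8.5 to E9.5 (log2) in wild type on the x axis and in mutant on the y axis, 1 point for each of the 13896 genes, coloured by the genotype in which the adjusted p was under 0.05 (limma), with 5 genes that changed in opposite directions ringed. Most points lie along the dashed line of equal change; Pf4 and Plekhd1 lie below it and Hspa1a far above.

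Arid1a itself stood at -0.12, 0.04 and -0.02 in wild type and at -0.09, 0.07 and 0.07 in mutant at E8.5, and at -0.34, -0.32 and -0.38 in wild type and at -0.27, -0.13 and -0.16 in mutant at E9.5. The differences of 0.05 ± 0.06 and 0.16 ± 0.06 did not pass at either stage (adjusted p = 0.823 and 0.3), and the interaction was 0.11 ± 0.09 with an interval from -0.08 to 0.30. A point mutation need not alter the level of its transcript, so this gives no check of the labels.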

How the data were processed

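Arrays were Agilent 2-colour arrays scanned with Feature Extraction 9.5.1.1, per the file headers. The deposited Cy5 and Cy3 mean and background intensity values of each spot, with the scanner software's flags, were used; the software's log10 ratio and the authors' deposited table of log2 ratios served as checks. With R 4.3.3 and limma 3.58.1, control spots were left out, background was corrected by normexp (offset 50), and each array was normalised by loess. Probes well above background in Cy5 on all 3 arrays of at least 1 group were kept (20065), named through RefSeq accessions or symbols where possible, and the brightest probe of a gene was tested (13896 genes). A 4-group linear model with empirical Bayes gave each contrast, with Benjamini-Hochberg adjustment over all genes at 0.05. The fit was tested on simulated data in which arrays varied independently and planted interactions were at least 1 in size. That test covers neither smaller interactions nor the shared variation of same-numbered arrays described below. The array number limits the precision, with 8 residual degrees of freedom.

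Named genes were the 12 with the smallest interaction p in each direction among official symbols, the best-ranked member of each list, genes alike at both stages and Arid1a; 2 genes are not reported here. Further list members with an unadjusted p under 0.05, or called at a stage, were named after their values were seen. The members and lists were chosen with earlier results of these data known. The replicate number is the scan, per the file headers. Deviations from the group means correlated between same-numbered arrays at a median of 0.23 (-0.01 to 0.42, 18 pairs, 15 over 0.1), against a median of -0.1 in the 36 other pairs (1 over 0.1), and all 12 arrays correlated best with their own number. Deviations sum to 0 within a group, so the negative median of the other pairs is tied to the positive one. Since 3 same-numbered pairs were not over 0.1, the fit without the replicate block was kept, though most arrays of a number varied together. That fit leaves the shared variation in its spread. With the block (limma), 1066 genes had an unadjusted interaction p under 0.05, against 795, and 1 passed adjustment. The calls were then 295 at E8.5, against 200, and 358 at E9.5, against 277. No genome build is named in the files, and no coordinates are given. Figures were drawn with matplotlib 3.10.9.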

Additional observations from a re-analysis of the deposited data

How the results depend on the processing

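The interaction counts of 0 became 1 with the replicate block (Plekhd1) and 1 with a trended robust prior, and 2 with array weights and 2 without the 3 arrays high in Prl4a1. Leaving out single arrays gave 0 to 5, the 5 without wild-type E9.5 replicate 3; leaving out mutant E9.5 replicate 2 gave 1, as did leaving out wild-type E8.5 replicate 2. The count of genes changed at E8.5 was 24 with Xist as a covariate, 391 with array weights, 10 with median centring, 86 without the arrays high in Prl4a1, 20 without those low in Xist, and 93 to 222 leaving out single arrays. It fell by more than 1.5 times without any mutant E8.5 array (112, 93 and 104) and without wild-type E8.5 replicate 1 (125) or 3 (108). At E9.5 it was 134 with Xist as a covariate, with processed signals 173, with median centring 26, without the Prl4a1 arrays 124, without the Xist arrays 107, and 145 to 369 leaving out single arrays, the lowest without mutant replicate 2 (168) and wild-type replicates 1 (162) and 2 (145). The stage count was 1458 in wild type with median centring (single arrays 2294 to 3315). In the mutant it was 1394 with Xist as a covariate, 1756 with median centring, 1347 without the Prl4a1 arrays and 845 without the Xist arrays (single arrays 2131 to 3368).

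The correlation of the mutant effects, whose alternatives were chosen after seeing the data, was 0.212 with Xist as a covariate, 0.331 without a filter, 0.35 with processed signals, 0.315 without the Prl4a1 arrays, 0.274 without the Xist arrays and 0.321 to 0.429 without single arrays. That of the stage changes was 0.711, 0.76, 0.717, 0.746 and 0.735 in the same order, 0.768 with an offset of 10 and 0.759 to 0.81 without single arrays. The interaction turned sign for Slc5a4b with processed signals (-0.28), Hbb-y with Xist as a covariate (0.12) or without the Xist arrays (0.05), Chd1 by another probe (-0.17) and Hes5 without wild-type E8.5 replicate 2 (0.00; 0.00 to 0.78 over single arrays). Genes chosen for values near 0 turned too. Fxyd6 was -0.06 with Xist as a covariate, -0.02 with weights, -0.10 without either set of 3 arrays and -0.04 to 0.13 without single arrays. Vwce was 0.02 with Prl4a1 as a covariate, 0.08 with Xist, 0.01 with weights, 0.02 with median centring, 0.04 with the lower offset, 0.05 with processed signals, 0.13 without the Xist arrays and -0.11 to 0.06 without single arrays. Ambp was 0.08 with weights, 0.02 with median centring and -0.16 to 0.11 without single arrays, and Cbln1 0.01 with median centring, 0.03 with the lower offset, 0.06 with processed signals and -0.12 to 0.01 without single arrays. The causes were not tested. Median centring moved the median of all genes at E8.5 by -0.0894 and at E9.5 by -0.0564.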
